A study of Homo sapiens with 48 samples.

Results

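The 10 genes described here act in the synthesis, breakdown and sensing of prostaglandins and prostacyclin. They are PLA2G4A, PTGS1, PTGS2, PTGIS, PTGES, PTGES2, PTGES3, HPGD, PTGER2 and PTGER4, 10 of the 20241 genes in the deposited table. The set was put together because PTGIS was among the largest increases in Talazoparib-resistant PSN1 cells kept in drug, and was thus chosen by the PTGIS values in those cells, which are given as a description without a test.

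The table covers PSN1, a human pancreatic ductal adenocarcinoma (PDAC) cell line grown in RPMI1640 with serum, in 3 groups of 3 replicates. Parental cells were never selected. TalaR-M cells had been selected in Talazoparib, a PARP inhibitor, and were maintained in drug. Their sample records give 50 nM and 4 months, and the paper describes selection in doses that were raised step by step. TalaR-DF cells were selected cells cultured afterwards in drug-free medium. The paper reports that, after weeks without drug, their sensitivity to Talazoparib had returned almost to that of parental cells. Below, resistant groups and resistant libraries mean both TalaR-M and TalaR-DF. They are named for their past selection, and not for resistance when the RNA was taken. The sources used here do not say whether a resistant line was 1 clone or a pool. All groups came from the same line and were sequenced as stranded poly(A) RNA. Nothing in the labels says that replicates were separately selected cultures, so p-values measure the spread between these libraries, which may be technical.

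Prostanoid synthesis starts when a phospholipase frees arachidonic acid from membrane lipids. A cyclooxygenase then turns it into the unstable prostaglandin H2, and a terminal synthase makes the end product. Prostaglandin E2 signals through EP receptors and is inactivated by a dehydrogenase, while prostacyclin signals through the IP receptor. In tumours, prostaglandin E2 made by cyclooxygenase-2 is the best known product, and prostacyclin is known mainly from blood vessel walls.

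Values are log2 CPM, where CPM is the reads of a gene scaled to the size of its library. The authors set every value under 0 to 0, so that a value of 0 stands for any level up to 1 CPM, which was between 6.97 and 14.5 reads. Differences are log2 fold changes from a limma fit to the 12471 genes above 1 CPM in at least 3 libraries. A gene was called where it changed 2-fold or more and its p, adjusted over all genes by Benjamini-Hochberg, was under 0.05. In bulk RNA, fewer cells that express a gene and less RNA per cell cannot be told apart.

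One library stood apart. TalaR-M replicate 2 was over 2-fold away from the mean of the other TalaR-M libraries in 43.5% of the genes tested, and it had 8387755 reads on genes above 1 CPM, against 12213605 to 14973847 in the others. Long transcripts were low in it and short ones high: the median deviation was -1.36 in the longest 10% of transcripts and 1.32 in the shortest. Of the 10 genes, PLA2G4A deviated by -2.02, PTGS2 by -1.77, PTGER2 by -1.23 and PTGER4 by -1.13, while PTGES2 was 1.43 and PTGES 0.84 above its replicates. PTGS1 (-0.54), PTGIS (-0.37), HPGD (-0.18) and PTGES3 (0.02) deviated less. TalaR-M differences are therefore given below with and without this library, save those of cell type markers and of neighbouring genes. The part of transcript length in each result was not tested.

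**Figure D1:**
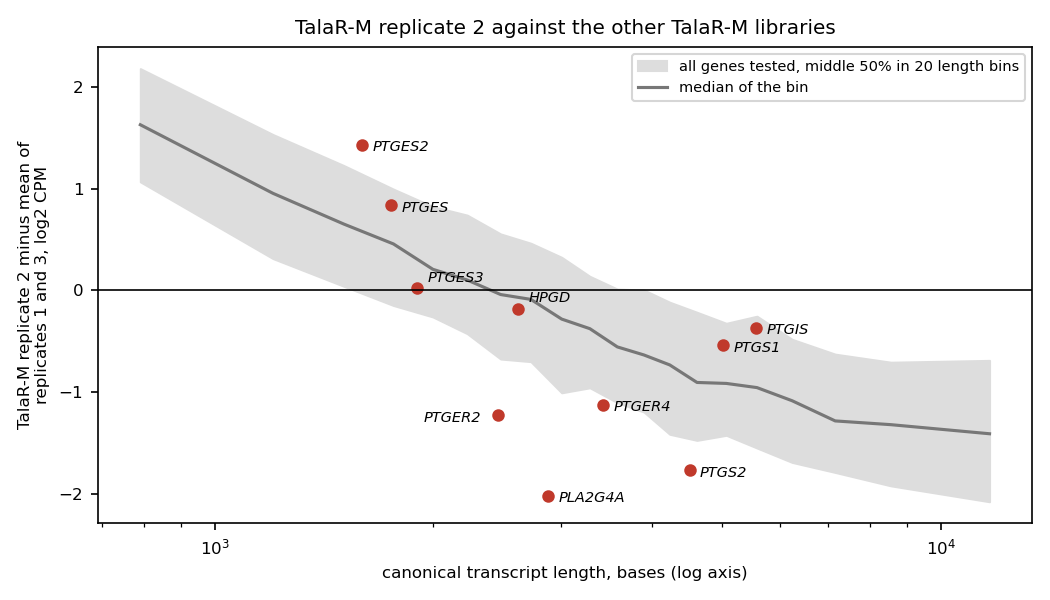
TalaR-M replicate 2 minus the mean of replicates 1 and 3 (y axis, log2 CPM) against the length of the canonical transcript (x axis, bases, log scale). The grey line and band are the median and the middle 50% of all genes tested in 20 length bins, and red points are the 10 genes. PLA2G4A, at -2.02, and PTGES2, at 1.43, are the lowest and highest of the 10.

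Across the set, 6 of the 9 members other than PTGIS were called in TalaR-M against parental cells, where 13.3% of all genes tested were called. PTGS1 and PTGER4 were higher (5.53% of all genes), and PTGS2, PLA2G4A, HPGD and PTGER2 were lower (7.72%). In TalaR-DF against parental cells 6 of 10 members were called, 5 of the 9 other than PTGIS, beside 9.73% of all genes: PTGIS was higher (2.25% of all genes), and PTGS1, PTGS2, PTGES, HPGD and PTGER2 were lower (7.49%). Between TalaR-M and TalaR-DF cells 3 of the 9 were called, beside 6.93% of all genes, with PTGS1 and PTGER4 higher (5.29% of all genes) and PLA2G4A lower (1.64%) in TalaR-M cells. HPGD and PTGER4 were above 1 CPM in only 4 and 6 libraries and reached the test through the groups in which they were high. Their differences from parental cells were favoured by this and are not support for these counts. PTGER4 was above 1 CPM in every TalaR-M and TalaR-DF library. The 3 TalaR-M libraries lay wholly above or below the parental ones for all 9 members, as they did for 49.8% of all genes. The TalaR-DF libraries did so for 9 of 10 members, PTGES3 excepted, and 68.5% of all genes. TalaR-M and TalaR-DF libraries did not overlap for 5 of the 9, PTGS1, PTGER4, PLA2G4A, PTGS2 and PTGES3, and for 40.8% of all genes. Both resistant groups were compared with the same 3 parental libraries.

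**Figure D2:**
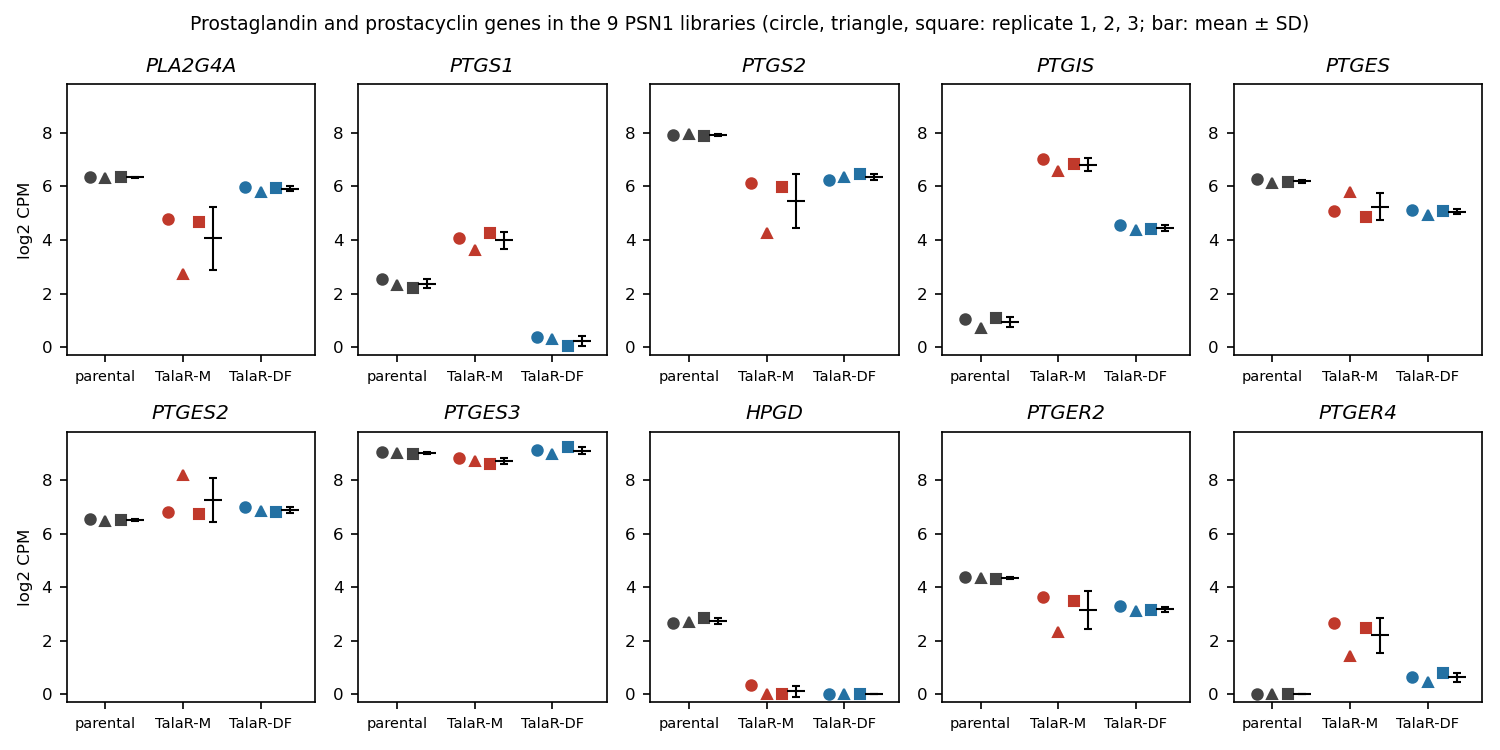
Log2 CPM of the 10 genes (y axis) in parental, TalaR-M and TalaR-DF libraries (x axis), with circles, triangles and squares for replicates 1, 2 and 3 and a black bar for the mean ± SD of 3 libraries. PTGIS lay at 0.95 ± 0.19, 6.81 ± 0.23 and 4.44 ± 0.11 in the 3 groups, and HPGD was at 0 in 5 of the 6 resistant libraries.

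PLA2G4A, the cytosolic phospholipase A2 that frees arachidonic acid, lies on chromosome 1 at 186828949 to 186988981 (GRCh38, plus strand). Its log2 CPM was 6.36, 6.32 and 6.35 in the parental libraries, 4.79, 2.72 and 4.69 in TalaR-M, and 5.98, 5.80 and 5.94 in TalaR-DF. All TalaR-M libraries were below all others, and TalaR-DF cells sat just under the parental ones. On the log2 scale PLA2G4A fell by 2.27 in TalaR-M cells (SE 0.49, adjusted p = 0.0112), a 4.84-fold decrease that was 3.03-fold without TalaR-M replicate 2. With only these 2 groups in the fit, the adjusted p was 0.0546. The difference of TalaR-DF from parental cells was -0.43 (adjusted p = 0.653). That p rests on a spread shared by the 3 groups. Without TalaR-M replicate 2 the same difference had an adjusted p of 0.000131, still under 2-fold and not called. Against TalaR-DF, PLA2G4A was lower in TalaR-M cells, with a log2 fold change of -1.84 (SE 0.49, adjusted p = 0.0450). This call held without TalaR-M replicate 2 (-1.17, adjusted p = 2.02e-07), but was lost with any single parental or TalaR-DF library left out (adjusted p 0.0869 to 0.143), with a replicate block (adjusted p = 0.0592) and with only the 2 groups in the fit (adjusted p = 0.184).

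The 2 cyclooxygenases went separate ways. PTGS1 encodes cyclooxygenase-1, which most tissues make at a steady level, and PTGS2 encodes the inducible cyclooxygenase-2. PTGS1 lies on chromosome 9 at 122370530 to 122395703 (plus strand), and PTGS2 on chromosome 1 at 186671791 to 186680922 (minus strand), 148 kb from PLA2G4A. Because their values parted, the 250 bases before each start site are shown here, 5′ to 3′ on the strand of the gene, from RefSeq on GRCh38.p14. Capitals mark matches, on either strand, to 5 short motifs. These were TATAAA, known as the TATA box, CGTCA, the core of the cAMP response element, and GGGCGG, the GC box. The other motifs were CCAAT, the CCAAT box, and the E-box CAGGTG. None of them overlapped another in these windows.
PTGS1, chr9:122370283-122370532: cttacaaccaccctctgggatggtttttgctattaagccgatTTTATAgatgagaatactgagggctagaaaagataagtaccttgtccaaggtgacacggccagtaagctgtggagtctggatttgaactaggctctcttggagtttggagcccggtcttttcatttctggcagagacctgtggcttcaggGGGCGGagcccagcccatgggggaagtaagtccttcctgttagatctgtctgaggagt
PTGS2, chr1:186680424-186680673: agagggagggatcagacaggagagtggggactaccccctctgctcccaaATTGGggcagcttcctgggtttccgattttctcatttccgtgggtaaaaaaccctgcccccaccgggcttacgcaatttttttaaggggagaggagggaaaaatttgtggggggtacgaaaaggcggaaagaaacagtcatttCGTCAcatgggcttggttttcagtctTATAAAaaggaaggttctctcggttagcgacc
PTGS2 held TATAAA 32 bases and CGTCA 58 bases before the start site, and PTGS1 held neither in the same strand within this window, with TATAAA only on the other strand at 208 bases. TATAAA was found in 2 of the 9 members with a promoter entry and in 10.7% of 35116 windows of this length. CGTCA was found in 3 of the 9 and in 21.2% of windows. A match is a string of letters, not a measured site.

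PTGS1 read 2.55, 2.33 and 2.21 log2 CPM in parental cells, 4.08, 3.62 and 4.24 in TalaR-M, and 0.39, 0.31 and 0.03 in TalaR-DF. The 3 groups did not overlap: TalaR-M libraries were the highest and TalaR-DF libraries, with 12 to 18 reads each, the lowest. PTGS1 rose by 1.62 in TalaR-M cells (SE 0.20, adjusted p = 0.000714), or 3.07-fold, and by 1.80 without TalaR-M replicate 2. In TalaR-DF cells it fell by 2.12 (SE 0.20, adjusted p = 0.000182), a 4.34-fold decrease from parental cells. Between the resistant groups it was 13.3-fold higher in TalaR-M (log2 fold change 3.74, SE 0.20, adjusted p = 2.78e-05), and 3.92 without TalaR-M replicate 2. These PTGS1 calls held with every single library left out, with adjusted p of at most 0.00522.

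PTGS2 was at 7.92, 7.94 and 7.88 in parental cells, 6.11, 4.27 and 5.98 in TalaR-M, and 6.22, 6.37 and 6.46 in TalaR-DF. Every resistant library was below every parental one. In TalaR-M cells PTGS2 fell by 2.46 (SE 0.43, adjusted p = 0.00425), or 5.50-fold, and without TalaR-M replicate 2 it was 3.65-fold lower. In TalaR-DF cells it fell by 1.56 (SE 0.43, adjusted p = 0.0381), or 2.95-fold. That call was lost with any single parental or TalaR-DF library left out (adjusted p 0.0997 to 0.121) and with a replicate block (adjusted p = 0.0587), while without TalaR-M replicate 2 the SE was 0.07 and the adjusted p 4.79e-09. The resistant groups differed by -0.90 (adjusted p = 0.198), or by -0.31 without TalaR-M replicate 2 (adjusted p = 0.00578, under 2-fold). The annotated antisense transcript PACERR shares 219 of 5484 exon bases with PTGS2, and whether the counting used the strand is not given in the sources used here.

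Per length of transcript, PTGS2 was the main cyclooxygenase transcript in every library, by a margin that differed between groups. PTGS2 over PTGS1, as CPM per kb, was 45.9, 54.4 and 56.7 in the parental libraries and 63.2, 74.2 and 96.0 in TalaR-DF. In TalaR-M it was 4.56, 1.75 and 3.70, below all 6 other libraries. In TalaR-M cells, the margin was smallest in replicate 2.

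PTGIS encodes prostacyclin synthase and lies on chromosome 20 at 49503874 to 49568137 (minus strand). It read 1.03, 0.73 and 1.08 log2 CPM in parental cells, from 22 to 29 reads. In TalaR-M it read 7.02, 6.57 and 6.85, from 714 to 2037 reads, and in TalaR-DF 4.57, 4.36 and 4.40. The order of the groups was the same in every library, with TalaR-M highest, TalaR-DF between and parental lowest, and no groups overlapped. The mean in TalaR-M was 5.86 above parental, a 58.2-fold difference and the 4th highest of the 12471 genes. Leaving out any 1 library gave 5.75 to 5.98. It was 2.37 (5.16-fold) above TalaR-DF, or 2.49 without TalaR-M replicate 2, rank 121 of all genes. In TalaR-DF against parental cells PTGIS rose by 3.50 (SE 0.18, adjusted p = 4.54e-06), or 11.3-fold, rank 15 of all genes. The TalaR-DF values had no part in choosing the set, but this difference rests on the same low parental values as the one that did, so its p is not independent of the choice.

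The prostaglandin E synthases showed nothing of that size. PTGES, the inducible microsomal enzyme that works with cyclooxygenase-2, lies on chromosome 9 at 129738331 to 129753042 (minus strand). It was at 6.26, 6.12 and 6.16 in parental cells, 5.08, 5.80 and 4.85 in TalaR-M, and 5.13, 4.94 and 5.08 in TalaR-DF, with all resistant libraries below the parental ones. In TalaR-DF it fell by 1.13 (SE 0.23, adjusted p = 0.0111), or 2.19-fold. That call was lost without parental replicate 1 (adjusted p = 0.0528) or TalaR-DF replicate 2 (adjusted p = 0.0503). In TalaR-M the log2 fold change was -0.94 (adjusted p = 0.0212), short of 2-fold, and without replicate 2 it was -1.22 (adjusted p = 3.84e-07) and passed both thresholds.

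PTGES2, a membrane-associated enzyme, lies on chromosome 9 at 128120693 to 128128462. It was at 6.54, 6.48 and 6.51 in parental cells, 6.80, 8.20 and 6.74 in TalaR-M, and 6.99, 6.86 and 6.80 in TalaR-DF. Only TalaR-M replicate 2 was far from the rest. The PTGES2 difference from parental cells was 0.74 in TalaR-M (adjusted p = 0.161), or 0.26 when replicate 2 was left out (adjusted p = 0.00502, under 2-fold). In TalaR-DF it was 0.37 (adjusted p = 0.574, or 0.000181 without TalaR-M replicate 2, under 2-fold). PTGES3, the cytosolic enzyme that is also the p23 co-chaperone of HSP90, lies on chromosome 12 at 56663341 to 56688408. It ran from 8.97 to 9.03 in parental, 8.58 to 8.81 in TalaR-M and 8.97 to 9.22 in TalaR-DF libraries, with differences from parental of -0.30 (adjusted p = 0.129) and 0.10 (adjusted p = 0.714). When TalaR-M replicate 2 was left out, the TalaR-M difference was again -0.30 (adjusted p = 0.0105). PTGES3 has processed pseudogenes that could share its reads. Between TalaR-M and TalaR-DF, PTGES2 differed by 0.37 (adjusted p = 0.469), or by -0.11 without TalaR-M replicate 2, and PTGES3 by -0.39 (adjusted p = 0.0870), or -0.40 without it.

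PTGIS stood against PTGES, the synthases of the 2 end products, in different proportion in the 3 groups. As CPM per kb, PTGIS over PTGES was 0.00838, 0.00748 and 0.00934 in parental libraries, 0.213, 0.210 and 0.197 in TalaR-DF, and 1.21, 0.535 and 1.26 in TalaR-M. In TalaR-M replicates 1 and 3 the PTGIS transcript was thus the more abundant of the pair, and in replicate 2 PTGES was. In CPM per kb of the group means, PTGIS went from 0.346 in parental cells to 20.2 in TalaR-M and 3.91 in TalaR-DF, while PTGS2 went from 53.4 to 9.71 and 18.1. These TalaR-M values include PTGIS, which chose the set, and are a description.

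**Figure D3:**
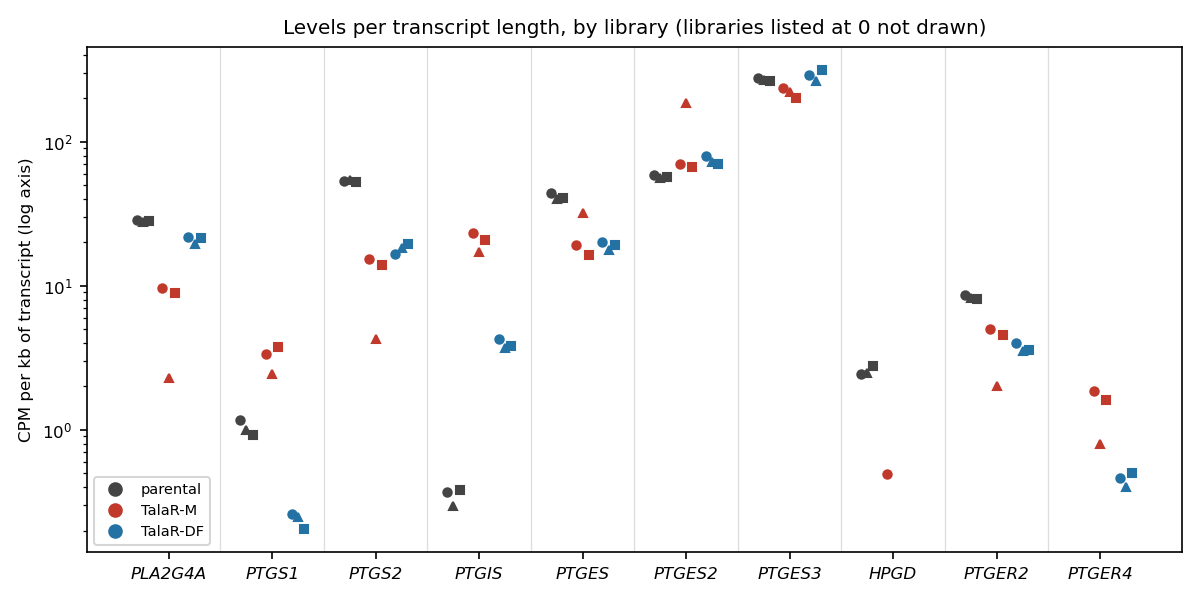
CPM per kb of canonical transcript (y axis, log scale) for the 10 genes (x axis), 1 point per library, in grey for parental, red for TalaR-M and blue for TalaR-DF, with circles, triangles and squares for replicates 1, 2 and 3. PTGES3 was the highest in every library, and PTGIS at 17.0 to 23.3 in TalaR-M lay above PTGS2 at 4.28 to 15.3 in the same libraries.

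HPGD encodes 15-hydroxyprostaglandin dehydrogenase, which inactivates prostaglandin E2, and lies on chromosome 4 at 174490175 to 174523154 (minus strand). It was at 2.68, 2.69 and 2.86 in the parental libraries, from 89 to 95 reads. In TalaR-M it was at 0.36, 0 and 0, and in TalaR-DF at 0 in all 3 libraries. The gene was above 1 CPM in a single resistant library, TalaR-M replicate 1, with 19 reads. HPGD fell by 2.62 in TalaR-M (SE 0.14, adjusted p = 4.41e-06), or by 2.56 when replicate 2 was left out, values that count the libraries at 0 as 1 CPM. In TalaR-DF it was at least 6.70-fold lower than in parental cells (log2 fold change -2.74, SE 0.14, adjusted p = 4.21e-06). Both calls held with every single library left out, although HPGD was tested only because parental cells had it. An unnamed annotated gene on the opposite strand shares 314 of 5531 exon bases.

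The window before its start site is shown because HPGD was the only 1 of the 9 members with a promoter entry to hold CAGGTG, the letters bound by SNAI and ZEB factors, at 138 bases before the start. CAGGTG was found in 17.5% of all windows. It also held GGGCGG on the other strand and CCAAT, again in capitals.
HPGD, chr4:174522489-174522738: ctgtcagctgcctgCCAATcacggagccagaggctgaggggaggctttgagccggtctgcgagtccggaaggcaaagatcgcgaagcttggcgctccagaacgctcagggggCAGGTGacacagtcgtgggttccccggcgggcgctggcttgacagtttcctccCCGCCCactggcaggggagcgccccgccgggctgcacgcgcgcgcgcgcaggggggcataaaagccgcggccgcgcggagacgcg

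PTGER2 and PTGER4 encode EP2 and EP4, the prostaglandin E2 receptors that raise cyclic AMP. PTGER2 lies on chromosome 14 at 52314305 to 52328598. It was at 4.39, 4.32 and 4.31 in parental cells, 3.62, 2.32 and 3.47 in TalaR-M, and 3.29, 3.13 and 3.13 in TalaR-DF, with every resistant library below the parental ones. PTGER2 fell by 1.20 in TalaR-M (SE 0.32, adjusted p = 0.0268) and by 1.16 in TalaR-DF (SE 0.32, adjusted p = 0.0365). Without TalaR-M replicate 2 the TalaR-M difference was -0.80 (adjusted p = 6.39e-05), under 2-fold and no longer called. The TalaR-M call was also lost without any single parental library (adjusted p 0.0830 to 0.0919). The TalaR-DF call was lost without any single parental or TalaR-DF library (adjusted p 0.0924 to 0.120), and without TalaR-M replicate 2 its adjusted p was 1.08e-06. The resistant groups differed by -0.04 (adjusted p = 0.938), by 0.11 after median ratio scaling, and by 0.37, under 2-fold, when TalaR-M replicate 2 was left out (adjusted p = 0.0157).

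PTGER4 lies on chromosome 5 at 40679915 to 40693735. It was at 0 in the 3 parental libraries, at 2.67, 1.45 and 2.47 in TalaR-M, from 99, 20 and 77 reads, and at 0.67, 0.47 and 0.79 in TalaR-DF, from 18 to 22 reads. The groups did not overlap, with TalaR-M highest. Against parental cells, PTGER4 in TalaR-M was higher by at least 4.59-fold (log2 fold change 2.20, SE 0.29, adjusted p = 0.00101), and the log2 fold change was 2.57 without TalaR-M replicate 2. The difference between TalaR-DF and parental cells was 0.64 (adjusted p = 0.187, or 0.00105 without TalaR-M replicate 2, not called). With a pseudocount of 1 CPM, and parental values taken as 0 CPM, it was 1.36 (adjusted p = 0.00521) and was called. TalaR-M was 2.94-fold above TalaR-DF (log2 fold change 1.56, SE 0.29, adjusted p = 0.0114). That call was lost without TalaR-DF replicate 2 (adjusted p = 0.0539) and with only the 2 groups in the fit (adjusted p = 0.0813), and was 1.93 without TalaR-M replicate 2. The window of PTGER4, the receptor that rose in TalaR-M, is shown beside those of the cyclooxygenases. It has no TATAAA or CGTCA, holds GGGCGG 4 times on the other strand, and has CCAAT at 74 and 83 bases before the start. GGGCGG was found in 7 of the 9 members and in 42.6% of windows, and CCAAT in 3 and in 32.0%.
PTGER4, chr5:40679665-40679914: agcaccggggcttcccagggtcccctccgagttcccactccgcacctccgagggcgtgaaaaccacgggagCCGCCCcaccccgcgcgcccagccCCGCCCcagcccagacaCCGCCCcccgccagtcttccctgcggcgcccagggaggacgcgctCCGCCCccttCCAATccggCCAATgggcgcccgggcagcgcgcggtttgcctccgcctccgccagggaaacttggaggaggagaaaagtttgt

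**Figure D4:**
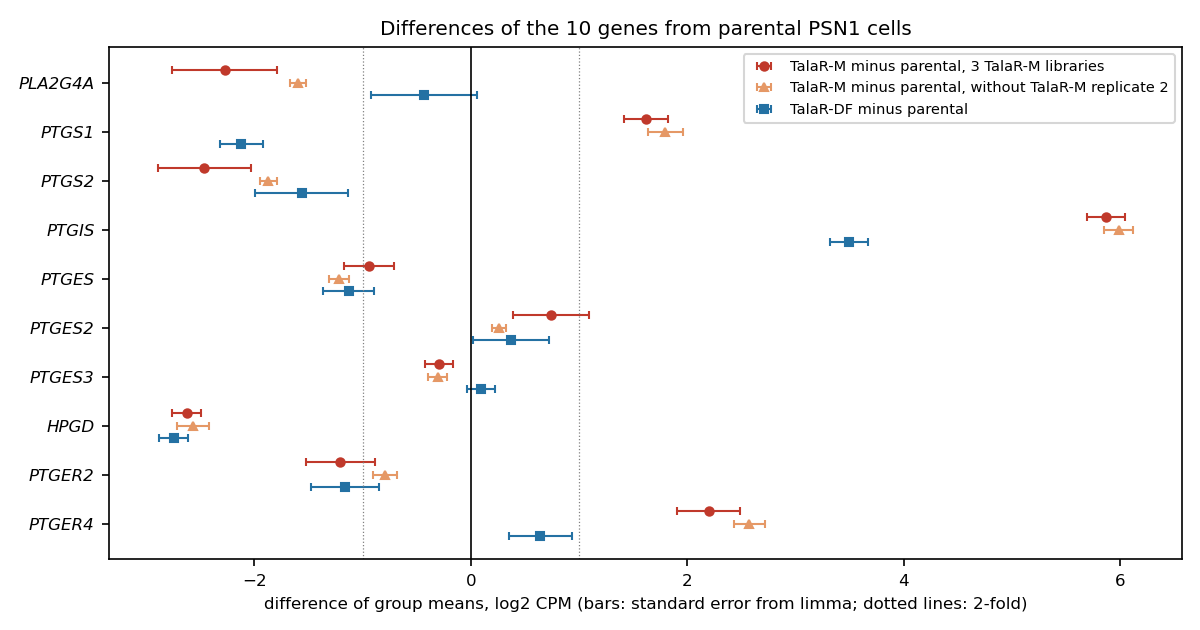
Differences of the group means from parental cells (x axis, log2 CPM) for the 10 genes (y axis), with the standard error from limma as bars and 2-fold as dotted lines. Red circles are TalaR-M with 3 libraries, orange triangles TalaR-M without replicate 2 and blue squares TalaR-DF. PTGS1 lay at 1.62 in TalaR-M and -2.12 in TalaR-DF, PTGIS at 5.86 and 3.50, and HPGD at -2.62 and -2.74.

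The other genes of the pathway were followed in 8 lists of 156 genes, of which 109 were tested. Some of these passed the filter only through a group in which they were high. They include CBR3, PLA2G4D, PDE4C, IL1A and PTGDS, as said below. Calls of such genes are in the totals here and are not support for them. Of the 109, 6 were called higher and 10 lower in TalaR-M against parental cells, 14.7%. In TalaR-DF 1 was called higher and 13 lower, 12.8%. Between TalaR-M and TalaR-DF cells 13 were higher and 1 lower in TalaR-M, again 12.8%. Of all genes called in that last comparison, 76.4% were higher in TalaR-M. The shares for all genes were the 13.3, 9.73 and 6.93% given above, and the medians of all genes were -0.09, 0.01 and -0.09 in the same order. These totals include TalaR-M replicate 2. Without it, calls higher and lower in TalaR-M against parental cells were 1 and 2 for release and 3 and 0 for supply. They were 2 and 1 for synthases, 2 and 0 for breakdown and transport, and 0 and 1 for receptors. The lipoxygenase list had 1 and 4, cyclic AMP 2 and 2, and PTGS2 regulators 1 and 4. Over all genes 1728 were called. In TalaR-DF no list had fewer calls without it, and 1417 of all genes were called.

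Of the 11 other prostanoid and PPAR receptor genes, 6 were at 0 in all 9 libraries, among them PTGIR, the prostacyclin receptor (named after its values were seen). Of the 5 tested, TBXA2R, the thromboxane receptor, was called lower in TalaR-M cells (-1.25, adjusted p = 0.0222, and -1.62 without replicate 2). The median of these 5 against parental cells was -0.71 in TalaR-M, -0.19 in TalaR-M without replicate 2, and -0.37 in TalaR-DF.

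Among 7 other prostanoid synthases tested, 2 rose in TalaR-M against parental cells, beside 5.53% of all genes. AKR1C3, which makes prostaglandin F2 alpha and shares reads with near-identical AKR1C genes, went from 3.09 ± 0.11 in parental to 4.31 ± 0.21 in TalaR-M and 2.87 ± 0.30 in TalaR-DF (SD, n = 3). It rose by 1.22 against parental cells (adjusted p = 0.0029) and was 1.43 above TalaR-DF (adjusted p = 0.00256), or 1.09 and 1.31 without TalaR-M replicate 2. CBR3, a carbonyl reductase, was at 0 in parental and TalaR-DF cells and at 1.71 ± 1.02 in TalaR-M, or 1.12 above both without replicate 2. It was called, but it reached the test through its TalaR-M libraries alone and had to differ. AKR1B1, an aldose reductase that also makes prostaglandin F2 alpha, was 1.04 higher in TalaR-M than in TalaR-DF (adjusted p = 0.0357), and 0.71 higher and not called without TalaR-M replicate 2. PTGDS, prostaglandin D synthase, was called lower in TalaR-DF (-1.28, adjusted p = 0.0348), a call lost without any single parental or TalaR-DF library (adjusted p 0.0872 to 0.125). PTGDS was above 1 CPM in 3 parental, 1 TalaR-M and 0 TalaR-DF libraries, so it was tested only because parental cells had it.

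Of 8 breakdown and transport genes, all tested, 2 rose in TalaR-M against parental cells, beside 5.53% of all genes. PTGR1, a reductase of the step after HPGD, went from 4.45 ± 0.06 to 5.79 ± 0.23 in TalaR-M and 4.57 ± 0.11 in TalaR-DF, a rise of 1.34 (adjusted p = 0.000454), or 1.22 without TalaR-M replicate 2. SLCO2A1, the prostaglandin uptake transporter, was at 0.16 ± 0.19, 1.59 ± 0.25 and 0.16 ± 0.27 in the same order, a rise of 1.43 (adjusted p = 0.00108), or 1.58 without that library. SLCO2A1 was above 1 CPM in 2 parental, 3 TalaR-M and 1 TalaR-DF libraries. Both were also higher in TalaR-M than in TalaR-DF, by 1.22 (adjusted p = 0.00169) and 1.43 (adjusted p = 0.00227), and by 1.11 and 1.58 without TalaR-M replicate 2.

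Among 11 release genes tested, 1 was called lower in TalaR-M and 2 in TalaR-DF, beside 7.72 and 7.49% of all genes. MGLL, the monoacylglycerol lipase that feeds arachidonic acid from endocannabinoids, was at 2.19 ± 0.23, 3.14 ± 0.12 and 0.45 ± 0.53 in parental, TalaR-M and TalaR-DF cells. It fell by 1.74 in TalaR-DF (adjusted p = 0.00245) and was 2.69 higher in TalaR-M than in TalaR-DF (adjusted p = 0.000445), or 2.75 without replicate 2. PLA2G4D, a phospholipase of the same family as PLA2G4A, was at 1.11 ± 0.13 in parental cells and at 0 in every resistant library, and reached the test through the parental libraries alone. PLA2G6 was 1.05 higher in TalaR-M than in TalaR-DF (adjusted p = 0.0361), and 0.82 and not called without TalaR-M replicate 2.

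Of 13 supply genes tested, ACSL1, a long-chain acyl-CoA synthetase, rose by 1.44 in TalaR-DF (adjusted p = 0.0115), and ACSL3, of the same family, fell by 1.22 in TalaR-M (adjusted p = 0.0417) and by 0.73, not called, without replicate 2. FADS2, the desaturase at the first step towards arachidonic acid, was 1.05 higher in TalaR-M than in TalaR-DF (adjusted p = 0.0128), or 1.21 without TalaR-M replicate 2. No other supply gene was called with all libraries in the fit. Without TalaR-M replicate 2, 3 supply genes were called higher and 0 lower in TalaR-M against parental cells. In that fit 1728 of all genes were called in either direction. The median of the list was then 0.18, against -0.01 with all libraries.

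In the lipoxygenase, leukotriene and epoxide branches, which compete for arachidonic acid, 12 of 29 genes were tested. CYSLTR2, a cysteinyl leukotriene receptor, was at 1.01 ± 0.48, 3.35 ± 0.90 and 0 in parental, TalaR-M and TalaR-DF cells and rose by 2.34 in TalaR-M (adjusted p = 0.00508), or by 2.86 without replicate 2. ALOX5AP, the 5-lipoxygenase activating protein, was at 2.10 ± 0.15, 2.17 ± 0.13 and 0.23 ± 0.37 and fell by 1.87 in TalaR-DF (adjusted p = 0.000349). EPHX2, the soluble epoxide hydrolase, fell by 1.27 in TalaR-M (adjusted p = 0.00717), a call that held without replicate 2 (adjusted p = 3.42e-05), and by 1.96 in TalaR-DF (adjusted p = 0.000917). GGT5, which cleaves leukotriene C4, fell by 2.18 in TalaR-DF (adjusted p = 0.00843).

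Below the EP2, EP4 and IP receptors, 28 cyclic AMP genes were tested, with 1 called higher and 3 lower in TalaR-M and 1 lower in TalaR-DF. Of all genes, 5.53% were called higher and 7.72% lower in TalaR-M, and 7.49% lower in TalaR-DF. ARRB1, a beta-arrestin, fell by 1.51 in TalaR-M (adjusted p = 0.000112), or by 1.44 without replicate 2. PDE4C, a cyclic AMP phosphodiesterase, was at 1.45 ± 0.30 in parental cells and at 0 in all resistant libraries, and like PLA2G4D it was tested only because parental cells had it. PDE3B, another phosphodiesterase, fell by 1.36 in TalaR-M (adjusted p = 0.0417), and by 0.82 and not called without replicate 2. RAPGEF4, the exchange protein EPAC2, rose by 1.57 in TalaR-M (adjusted p = 0.0253), or by 2.08 without replicate 2. The median of the list was -0.52 in TalaR-M with all libraries and -0.13 without replicate 2.

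Of 25 inducers and regulators of PTGS2, 3 were called lower in TalaR-M and 6 in TalaR-DF, beside 7.72 and 7.49% of all genes. The 25 include IL1A (named after its values were seen), which was above 1 CPM in the 3 parental libraries alone and reached the test through them. IL1B, the cytokine that induces PTGS2, went from 4.60 ± 0.07 in parental cells to 2.20 ± 0.21 in TalaR-M and 1.11 ± 0.25 in TalaR-DF. It fell by 2.40 (adjusted p = 3.25e-05) and by 3.49 (adjusted p = 4.82e-06), and was higher in TalaR-M than in TalaR-DF by 1.09 (adjusted p = 0.00613). Without TalaR-M replicate 2 the TalaR-M values were -2.33 against parental cells and 1.16 against TalaR-DF. TGFB1, a growth factor, fell by 1.35 in TalaR-M (adjusted p = 0.000318), or by 1.43 without replicate 2, and JUN, an AP-1 subunit, by 1.24 in TalaR-DF (adjusted p = 0.0047). CEBPD, a transcription factor, was 1.52 higher in TalaR-M than in TalaR-DF (adjusted p = 0.0158), or 1.19 without TalaR-M replicate 2.

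**Figure D5:**
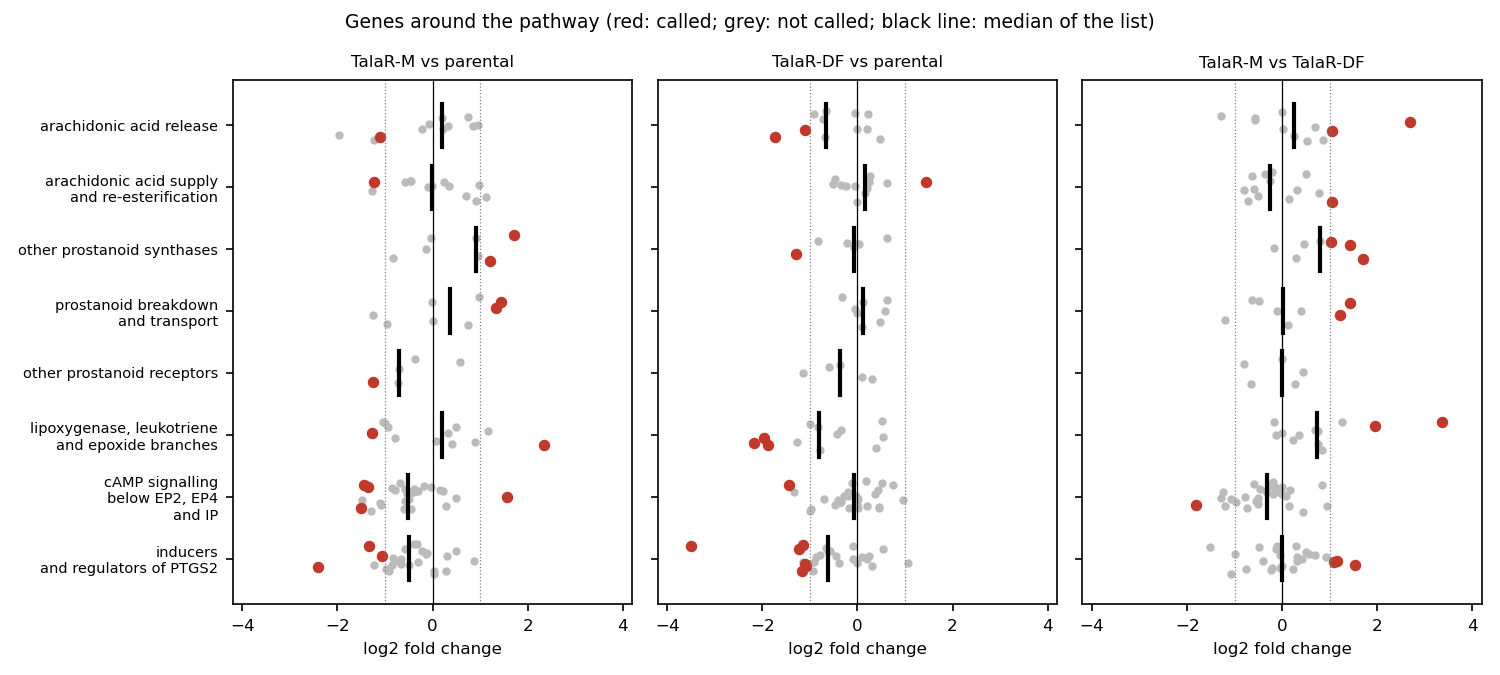
Log2 fold changes (x axis) of the 109 tested genes in the 8 pathway lists (y axis) in the 3 comparisons, 1 point per gene, red where called and grey where not, with a black line at the median of each list and dotted lines at 2-fold. Between TalaR-M and TalaR-DF cells, 13 of the 14 called genes were higher in TalaR-M, beside 76.4% of all genes called.

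PTGIS is known as a gene of vessel walls, so markers of other cell types were read beside it. Of 13 endothelial markers, 5 were at 0 in all 9 libraries, VWF, CLDN5, EMCN, ERG and ESAM. The summed level of the 13 was 35.2 to 37.0 CPM in parental, 5.91 to 10.3 in TalaR-M and 2.92 to 4.29 in TalaR-DF libraries. PECAM1 and KDR had the highest parental means of the 13, at 3.79 and 3.88 log2 CPM. Of 15 smooth muscle and fibroblast markers, 6 were at 0 throughout, ACTA2, CNN1, DES, MYOCD, THY1 and FAP. Their sums were 1797 to 1870, 1241 to 3417 and 915 to 1033 CPM in the same order, carried by collagen genes. Among the others, TAGLN had means of 0.75, 3.26 and 1.70, MYH11 of 0.09, 0.80 and 0.16, and DCN of 0, 1.55 and 0. Each of these was highest in TalaR-M, as PTGIS was. PDGFRA, with 6.15, 4.51 and 5.87, PDGFRB, with 6.15, 3.22 and 2.87, and LUM, with 5.28, 1.78 and 3.51, were instead highest in parental cells. So was the collagen gene COL1A2 (7.86, 0 and 3.77). The collagen genes COL1A1 (6.50, 8.47 and 3.82) and COL3A1 (10.4, 11.0 and 9.76) were highest in TalaR-M. The part of endothelial, smooth muscle or fibroblast cells in the PTGIS values was not tested. Of 12 immune markers 9 were at 0 throughout, and the sums were 14.8 to 18.0, 4.14 to 7.11 and 1.18 to 2.55 CPM. The epithelial keratins KRT7, KRT8, KRT18 and KRT19 were present in all groups, whereas the epithelial marker CDH1 and the duct factors PDX1, ONECUT1 and ONECUT2 were at 0 in all 9 libraries. The duct markers SOX9, with means of 6.84, 5.91 and 6.07, and GATA6, with 5.23, 5.15 and 5.02, were present in every group. Epithelial sums were 1243 to 1311, 1868 to 5869 and 1118 to 1249 CPM. All TalaR-M means and sums of markers include replicate 2. The TalaR-M SD was 0.82 for KRT7, 0.90 for KRT8, 1.32 for KRT18, 0.96 for KRT19 and 0.96 for COL3A1. In parental cells it was 0.02, 0.06, 0.04, 0.03 and 0.04 in that order. Which group was highest without replicate 2 was not worked out for the markers.

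The genes outside the set whose log2 values were most like those of PTGIS over the 9 libraries were LIPH (Pearson r = 0.998), MATN2 (0.998), SCG2 (0.996), AKR1B10 (0.995) and CCDC80 (0.995). The libraries form 3 separate levels, so these values describe the order of the groups. SCG2, secretogranin II, had means of 0.86, 7.15 and 4.74 in parental, TalaR-M and TalaR-DF cells. MATN2, a matrix protein, had means of 0.25, 6.50 and 3.77. Without TalaR-M replicate 2, the 5 closest were SCG2, PTCH1, LIPH, CCDC80 and FBLN1.

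Of the 5 tested genes on each side of PTGIS, within 479 kb, 1 was called higher in TalaR-M against parental cells. Taken in the same way at any distance, 0 to 4 of 10 neighbours of each member were called lower in TalaR-M, beside 7.72% of all genes. There were 4 around PTGS2 (PLA2G4A among them) and 3 around PLA2G4A (PTGS2 among them), whose neighbours are partly the same. Neighbours of these 2 genes reached as far as 6419 and 6293 kb. The called RGS1 lay 5904 kb from PTGS2.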

How the data were processed

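The 9 RNAseq libraries of PSN1 cells were analysed as 3 groups, and the other libraries of the series were not analysed here. The authors deposited log2 CPM values with effective library sizes, a prior count of 0.565 to 1.18 reads that scales with them, and a floor at 0, as the values themselves show. The submitters' processing notes name hg38, and the aligner and counting method are not given in the sources used here. The maintained columns were read as TalaR-M, and the withdrawn ones as TalaR-DF. Below 50 CPM, 100% of values gave whole reads within 0.05, and reads on genes above 1 CPM summed to 8387755 to 14973847 per library. The floor limits what can be said of low genes. The reads served for depth only, since those at or below 1 CPM could not be recovered for a count test.

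Log2 values were compared with limma 3.58.1 (R 4.3.3) in a single model of 3 groups with a mean-variance trend and no added pseudocount. It was tested on data simulated with the same spread in every library, which does not cover a library that stands apart, as TalaR-M replicate 2 did. With 3 against 3 libraries an exact permutation test cannot pass the threshold and was not used. The 10 genes and the lists were chosen with earlier results of these data known. All 10 genes are named, and from each list at most 4 called genes, those with the largest changes. Positions and lengths came from GENCODE 44, matched by symbol for 88.3% of genes (93.7% of those tested), and promoters from RefSeq for 9 of 10 members, the first entry where there were several. Alternatives were added pseudocounts, other filters, thresholds, scaling, weights, a length and GC correction, a replicate block, a fit of only 2 groups, and leaving out each library. Figures were drawn with matplotlib 3.10.9. The summed level of the duct markers is not reported here.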

Additional observations from a re-analysis of the deposited data

How the results depend on the processing

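Against parental cells, 6 of the 9 members tested were called in TalaR-M and 6 of 10 in TalaR-DF. Between TalaR-M and TalaR-DF 3 of 9 were called. The count for TalaR-DF against parental cells includes PTGIS, which chose the set. As said above, calls of HPGD and PTGER4 against parental cells are not support for these counts. Calls numbered 2, 2 and 2 with an added pseudocount of 8 CPM, which shrinks low genes. They numbered 4, 6 and 1 with only the 2 groups compared in the fit. Leaving out 1 library gave 5 to 6, 3 to 6 and 1 to 3. The lowest counts came without any 1 of the parental replicates in the first comparison, without parental replicate 1 or TalaR-DF replicate 2 in the second, and without TalaR-DF replicate 2 in the last. Same-numbered libraries deviated with correlations of -0.31 to 0.16, so the numbers were not taken to pair the samples. A replicate block gave 6, 5 and 2 calls. Over all genes, 1653, 1214 and 864 were called, against 711, 426 and 272 with 8 CPM added, 2938, 2315 and 1502 without a fold threshold, and 484 in the last comparison with only 2 groups.

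Among the differences named in the text, directions changed for 4, none of them called. PTGES3 in TalaR-DF against parental cells became -0.11 with the length and GC trend removed, with or without a replicate block. Between TalaR-M and TalaR-DF, PTGES became -0.10 with array weights and -0.20 with the trend removed (with or without the block), and ran from -0.090 (without TalaR-M replicate 2) to 0.39 with 1 library left out. PTGES2 became -0.11 and -0.25, and ran from -0.11 to 0.62, under the same settings. PTGER2 became 0.0051 with 8 CPM added, 0.11 with median ratio scaling, 0.34 with array weights and 0.0083 without TalaR-DF replicate 1, and ran from -0.29 to 0.37 (without TalaR-M replicate 2) with 1 library left out. Median ratio scaling moved the median of all genes by 0.11, -0.03 and 0.12. The cause of these changes was not tested. Genes at or below 1 CPM cannot be told from absent, because the deposited values stop at 0.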
